A study of Homo sapiens with 18 samples.

Results

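The RUNX family and CBFB were followed here through the histone marks over their genes, RUNX1, RUNX2, RUNX3 and CBFB, in MOLM-13, an established line of human acute myeloid leukemia cells that carries a rearranged KMT2A gene. The members are all listed intervals that overlap one of the 4 gene bodies of GENCODE release 44 with 10 kb on either side, 352 of the 275391 intervals listed for 4 marks. They comprise 53 of 59230 intervals for H3K4me3, 77 of 74559 for H3K27ac, 222 of 108165 for H3K4me1 and 0 of 33437 for H3K27me3. The lists hold several overlapping versions of most loci, so the member intervals fall into 16 separate H3K4me3 loci, 35 H3K27ac loci and 67 H3K4me1 loci. The marks were measured by Cut&Tag, in which an antibody tethers a transposase that cuts and tags the DNA beside a modified histone. One group of cells received 100 nM PR-957, an inhibitor of the immunoproteasome subunit PSMB8, and the other received the solvent DMSO. The labels give 72 h of treatment, whereas the supplement of the study gives a shorter time for these libraries. Each mark had 2 libraries per group and the series 16 in total, and 2 further samples with IgG were not used here. MOLM-13 is a single line, and nothing in the labels says that the libraries of a group came from separate cultures, so p-values measure the spread between these libraries, which may be technical.

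RUNX proteins are transcription factors that bind DNA through their Runt domain, and CBFB is the partner that does not touch DNA itself and strengthens their binding. RUNX1 is required for the formation of blood stem cells and is often altered in leukemia, RUNX2 is the master regulator of bone formation, and RUNX3 acts in T cells and in sensory neurons. Each RUNX gene is read from a distal promoter, P1, and a proximal promoter, P2, whose proteins differ at their first residues. H3K4me3 is known as a mark of active promoters, H3K27ac of active promoters and enhancers, H3K4me1 of enhancers and promoter flanks, and H3K27me3 of Polycomb repression.

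The RefSeq table of promoters on GRCh38.p14 held 5 of the promoters described below, and they are shown because the P1 and P2 sequences differ in the features that follow. Each runs 5′ to 3′ on the strand of the gene, from 250 bases before the start site to 30 bases into the transcript, and capitals mark the RUNX core motif TGTGGT or its reverse complement ACCACA.
RUNX2 P1 (chr6:45328080-45328359, plus strand): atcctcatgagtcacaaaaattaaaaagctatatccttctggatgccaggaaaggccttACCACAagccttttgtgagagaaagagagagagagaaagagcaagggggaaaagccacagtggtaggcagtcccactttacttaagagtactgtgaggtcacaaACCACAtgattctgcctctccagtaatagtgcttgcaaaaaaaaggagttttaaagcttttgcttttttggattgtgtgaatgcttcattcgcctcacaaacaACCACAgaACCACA
RUNX3 P1 (chr1:24964981-24965260, minus strand): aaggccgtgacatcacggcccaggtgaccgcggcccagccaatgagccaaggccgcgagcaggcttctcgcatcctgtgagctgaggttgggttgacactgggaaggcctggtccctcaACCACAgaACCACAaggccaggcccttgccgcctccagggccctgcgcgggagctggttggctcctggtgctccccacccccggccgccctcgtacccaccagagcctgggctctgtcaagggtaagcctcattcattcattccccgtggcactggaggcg
RUNX2 P2 (chr6:45422025-45422304, plus strand): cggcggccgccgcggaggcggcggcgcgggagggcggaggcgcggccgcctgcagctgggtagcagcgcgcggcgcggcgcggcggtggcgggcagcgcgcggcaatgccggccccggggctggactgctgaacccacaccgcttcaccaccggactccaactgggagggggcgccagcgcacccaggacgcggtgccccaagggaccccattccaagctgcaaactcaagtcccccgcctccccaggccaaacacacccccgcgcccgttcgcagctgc
RUNX1 P2 (chr21:34888670-34888949, minus strand): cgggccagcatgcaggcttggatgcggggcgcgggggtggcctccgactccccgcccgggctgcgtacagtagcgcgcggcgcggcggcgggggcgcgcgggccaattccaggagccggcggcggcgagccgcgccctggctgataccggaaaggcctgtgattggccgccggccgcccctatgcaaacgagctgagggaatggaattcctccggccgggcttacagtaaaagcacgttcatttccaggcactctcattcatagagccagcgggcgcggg
RUNX3 P2 (chr1:24930247-24930526, minus strand): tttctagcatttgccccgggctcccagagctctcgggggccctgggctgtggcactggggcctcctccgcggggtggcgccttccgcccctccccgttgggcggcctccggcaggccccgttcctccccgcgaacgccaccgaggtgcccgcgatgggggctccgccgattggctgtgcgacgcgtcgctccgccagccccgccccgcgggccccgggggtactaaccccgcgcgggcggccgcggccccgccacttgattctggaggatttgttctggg

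Both P1 sequences held the motif and none of the 3 P2 sequences did. RUNX2 P1 held 4 matches and RUNX3 P1 held 2, all of them ACCACA on the strand of the gene. At least 1 match on either strand was present in 12.3% of the 35116 promoters of the table over the same 280 bases, and at least 2 in 1.16%. The copies do not overlap each other, and no other motif was searched. A pair of these copies lies in a stretch of 16 bases that RUNX2 P1 and RUNX3 P1 share exactly, caACCACAgaACCACA, which begins 133 bases before the RUNX3 P1 start and just inside the RUNX2 P1 transcript, and which 2 of the 35116 promoters hold. RUNX1 P2 and RUNX2 P2 likewise share a stretch of 16 bases, without the motif, which 2 of the 35116 promoters hold. It begins 179 bases before the RUNX1 P2 start and 186 before the RUNX2 P2 start. The promoters also differ in base composition. RUNX2 P1 had 42.1% GC and 1 CG dinucleotide, against medians of 58.2% and 13 over the table, whereas RUNX2 P2 had 77.1% GC and 38 CG dinucleotides. RUNX1 P2 and RUNX3 P2 were like the latter, with 35 and 34 CG dinucleotides, and RUNX3 P1 lay between with 15. The sequences of RUNX1 P1 and CBFB are not shown.

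In DMSO, P2 carried more H3K4me3 than P1 in each RUNX gene where both were listed, and RUNX2 P1 was listed for no mark. Levels are given as CPM, the counts scaled by edgeR to an effective library size of 1e+06, per kb of interval, since intervals differ in length, and a promoter stands for the best covered interval (highest mean count) that overlaps the 2 kb around its start sites. At RUNX1 P2 (chr21:34880235-34891953), the H3K4me3 level was 6.53 and 6.94 CPM per kb in DMSO and 6.63 and 7.30 in PR-957. The values at RUNX1 P1 (chr21:35044002-35052559) were 3.60 and 3.04 in DMSO and 2.91 and 3.60 in PR-957. All 4 libraries were higher at P2, by 1.81 to 2.29 times. RUNX1 P2 also lay in a broad H3K4me3 locus of 11.8 kb, with rank 180 in width among 16123 loci, within the widest 1.12%. RUNX1 P1 lay in one of 8.70 kb, within the widest 3.23%.

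RUNX2, a gene that the study names among the targets of the KMT2A fusion, showed the highest promoter levels of the family. RUNX2 P2 (chr6:45418481-45425435) had an H3K4me3 level of 11.0 and 10.7 CPM per kb in DMSO and 9.97 and 10.9 in PR-957. This level exceeded that of 98.7% of all H3K4me3 loci, each taken at its best covered interval. At RUNX2 P1 no interval of any mark lay within 2 kb, and the nearest lay 16.9 kb away for H3K4me1, 46.9 kb for H3K4me3 and 47.3 kb for H3K27ac. The files list selected intervals only, so the level at RUNX2 P1 was not measured and is not given as 0. The nearest H3K4me3 and H3K27ac intervals to RUNX2 P1 lie at the promoter of SUPT3H, a gene on the opposite strand that starts 49.8 kb inside RUNX2 and encodes a subunit of the SAGA coactivator complex. At that promoter the H3K4me3 level was 11.5 and 12.4 CPM per kb in DMSO and the H3K27ac level was 22.9 and 22.4, so these member intervals cannot be told apart from marks of SUPT3H.

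RUNX3 was marked at a lower level. RUNX3 P2 (chr1:24926538-24931336) had an H3K4me3 level of 3.96 and 3.89 CPM per kb in DMSO and 4.19 and 3.97 in PR-957. RUNX3 P1 (chr1:24962411-24966812) had 0.905 and 0.851 in DMSO and 0.805 and 0.915 in PR-957, a level above that of 18.5% of all H3K4me3 loci. The ratio of P2 to P1 was 4.34 to 5.20 over the 4 libraries, so that P2 exceeded P1 in each of them. CBFB has 1 main promoter (chr16:67027297-67032004), with an H3K4me3 level of 3.46 and 3.50 in DMSO and 3.33 and 3.55 in PR-957. In DMSO the order was RUNX2 P2, RUNX1 P2, RUNX3 P2, CBFB, RUNX1 P1 and RUNX3 P1, and the ranges of CBFB and RUNX1 P1 overlapped.

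H3K27ac followed the same order at the top. RUNX2 P2 had an H3K27ac level of 14.8 and 15.2 CPM per kb in DMSO and 14.8 and 15.3 in PR-957, above 99.2% of all H3K27ac loci. RUNX1 P2 had 11.7 and 12.7 in DMSO and 12.0 and 11.9 in PR-957, whereas RUNX1 P1 had 4.41 and 4.64 in DMSO and 3.70 and 4.49 in PR-957. The ratio of RUNX1 P2 to P1 was thus 2.65 to 3.24 over the libraries. At CBFB the level was 4.05 and 3.96 in DMSO and 4.24 and 4.45 in PR-957. RUNX3 was the gene without a clear order of its promoters in this mark, since P2 had 3.31 and 3.45 in DMSO and P1 had 2.48 and 3.70. Its ratio of P2 to P1 ran from 0.931 to 1.88 over the 4 libraries.

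H3K4me1 ran the other way. The level in DMSO was 2.71 and 2.68 CPM per kb at RUNX1 P1 and 2.60 and 2.63 at RUNX3 P1, above 90.4% and 89.6% of all H3K4me1 loci. It was 1.16 and 0.614 at RUNX1 P2, 0.949 and 0.637 at RUNX2 P2, 0.378 and 0.733 at RUNX3 P2, and 0.886 and 0.654 at CBFB. These 4 ranges overlapped each other and lay below both P1 ranges, and P1 exceeded P2 by 2.05 to 4.37 times in RUNX1 and by 3.59 to 6.87 times in RUNX3 over the 4 libraries. The H3K4me1 intervals at RUNX1 P2 and CBFB lie at the edge of the H3K4me3 locus rather than across the start sites, and the one at RUNX2 P2 (chr6:45416268-45421121) ends short of them. The level of H3K4me1 at RUNX3 P1 came from a locus 11.6 kb wide, within the widest 5.16% of that mark.

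**Figure D1:**
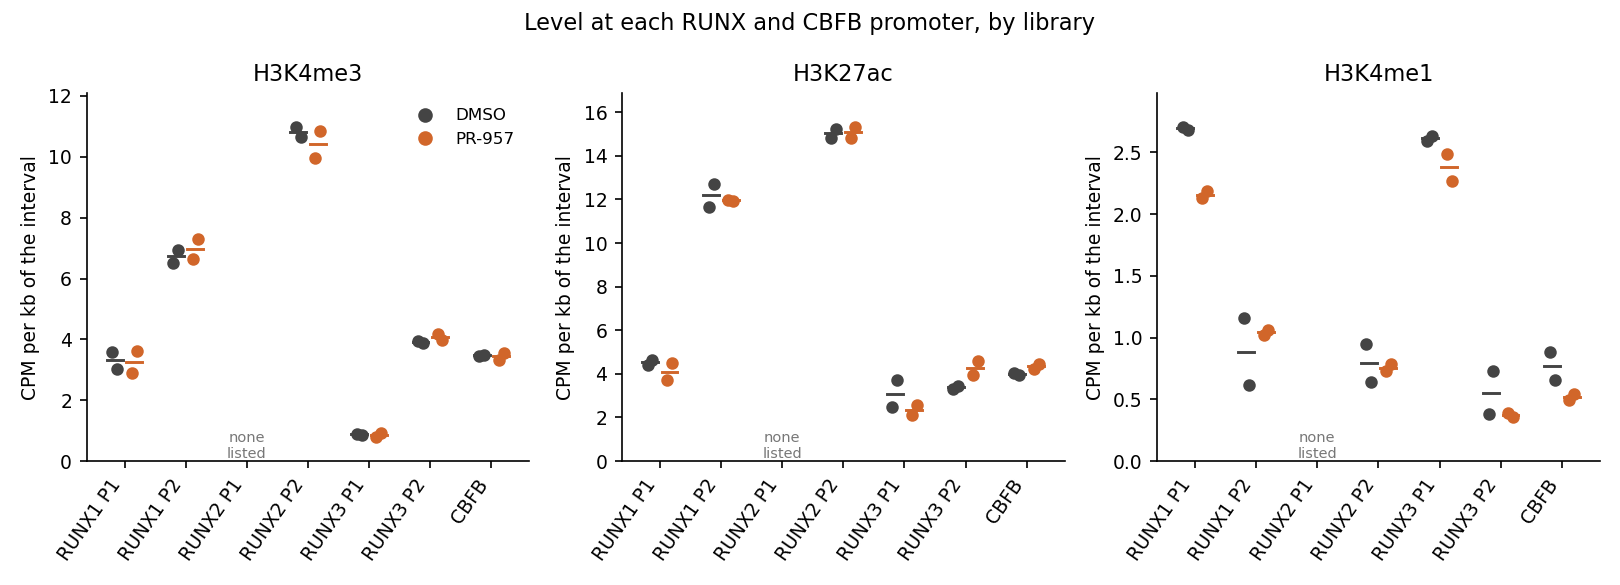
Level of each mark at the promoters of RUNX1, RUNX2, RUNX3 and CBFB, in CPM per kb of the interval (vertical axis, linear from 0), with 1 point per library (DMSO grey, PR-957 orange) and a line at the mean of 2 libraries. RUNX2 P2 and RUNX1 P2 have the highest H3K4me3 and H3K27ac, RUNX1 P1 and RUNX3 P1 have the highest H3K4me1, and RUNX2 P1 has no listed interval.

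No H3K27me3 interval was listed in the windows of the 4 genes. The nearest H3K27me3 interval lay 97.2 kb from the RUNX1 gene, 276 kb from RUNX2, 35.5 kb from RUNX3 and 11.7 kb from CBFB. In the same cells, 9 of 40 genes of the RUNX network had an H3K27me3 interval within 2 kb of a start site. Among them were the blood stem cell factors ERG, GATA2 and TAL1. GATA2 also had H3K4me3 there, at 57.4 and 55.8 CPM in DMSO, and H3K27ac, at 31.6 and 29.3. ERG and TAL1 had no H3K27ac interval there.

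Inside the genes, RUNX1 held the most marked loci, also because its annotated body is the longest. GENCODE places 1 RUNX1 start 955 kb upstream of P1, so that the annotated gene spans 1217 kb, of which 262 kb lie between P1 and the last exon. From the last exon to P1 with 10 kb either side there were 6 H3K4me3 loci, 13 H3K27ac loci and 20 H3K4me1 loci. The part upstream held 4, 6 and 16 loci, and no protein-coding gene starts in it. Of all 19 RUNX1 loci with H3K27ac, 18 overlapped an H3K4me1 locus (94.7%, against 54.2% of all H3K27ac loci), and 10 overlapped an H3K4me3 locus (52.6%, against 44.9%). H3K27ac with H3K4me1 is the combination usual at active enhancers, but the 18 loci include those at P1 and P2. All 10 loci that overlapped H3K4me3 are also among the 18. Since wide loci overlap others more readily, and the RUNX1 loci with H3K4me1 include several over 10 kb wide, these shares are descriptions.

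Outside the promoters, the RUNX1 locus with the highest H3K4me1 level was centred 239 kb downstream of the P1 start, with 4.18 and 3.92 CPM per kb in DMSO. Its H3K27ac neighbour at 241 kb had 2.46 and 2.52 CPM per kb. A locus 139 kb downstream, between P1 and P2, had an H3K4me1 level of 3.74 and 3.14 and an H3K27ac level of 1.93 and 2.25. It also held H3K4me3, at 0.582 and 0.513. Nearer to P1 lay another locus with all 3 of the active marks. Its H3K4me1 was centred 21.6 kb downstream of the P1 start, at 2.91 and 2.83 CPM per kb, its H3K27ac at 22.7 kb, with 2.54 and 2.58, and its H3K4me3 at 22.4 kb, with 1.16 and 0.960. Upstream of P1, a further locus, with its H3K27ac centred 516 kb away, also held H3K4me3, H3K27ac and H3K4me1, with an H3K27ac level of 3.04 and 3.23. The H3K27ac loci centred 65.8 and 182 kb downstream and 460 and 480 kb upstream overlapped H3K4me3 and H3K4me1 as well. No enhancer annotation was used, so none of these loci is given an enhancer name.

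**Figure D2:**
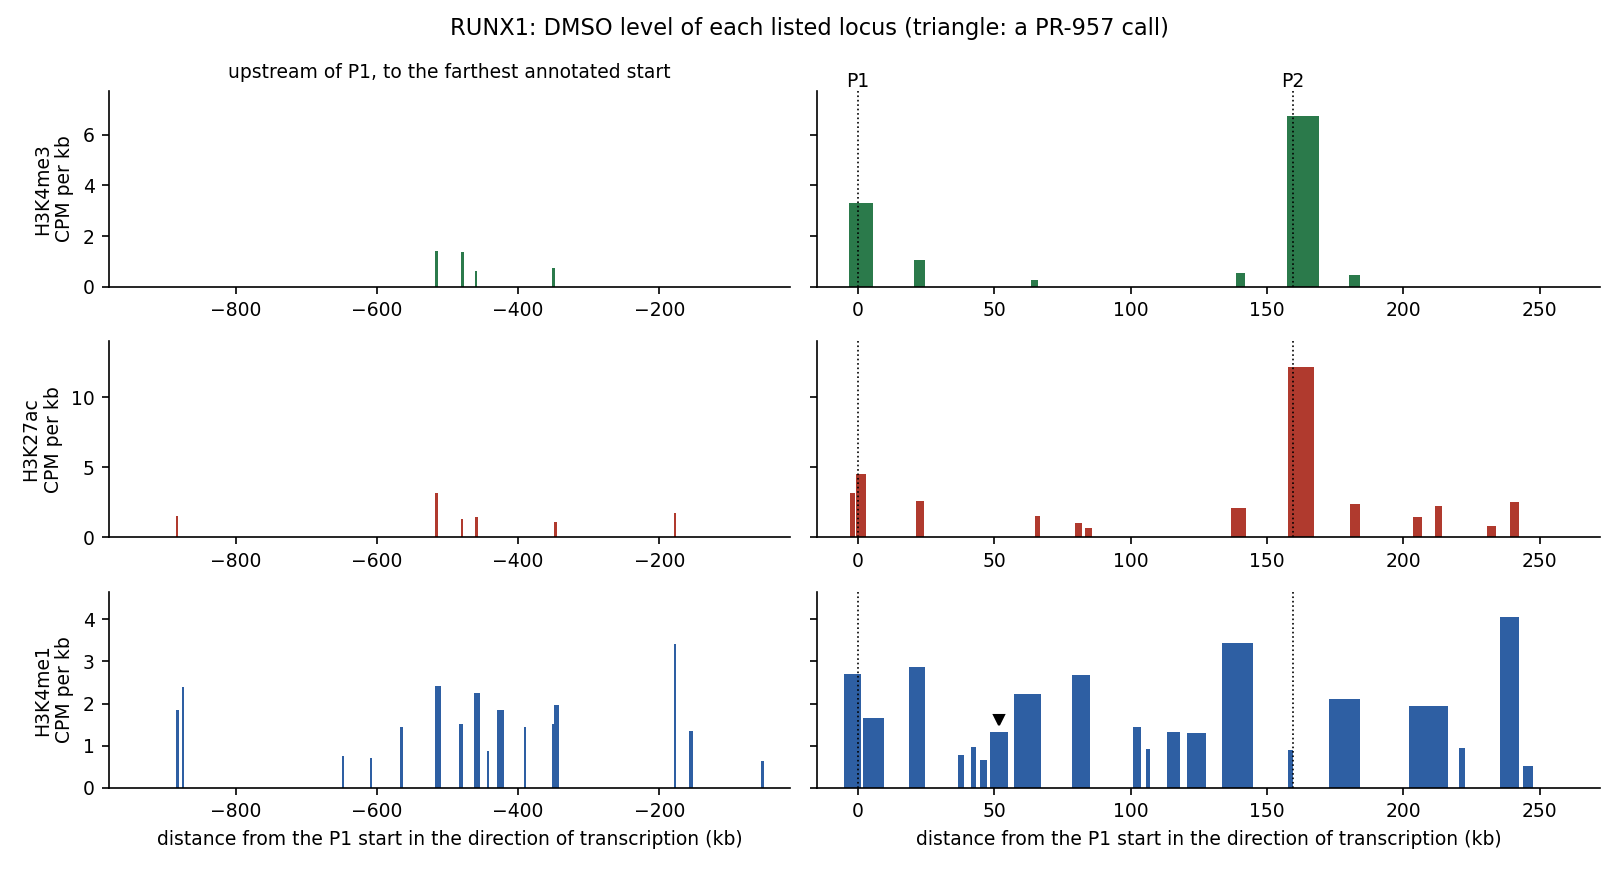
DMSO level (mean of 2 libraries, CPM per kb of the interval, vertical axis) of each RUNX1 locus against the distance of its leading interval from the P1 start in kb (horizontal axis; left, the annotated part upstream of P1, right, P1 to beyond the last exon, with a different scale). H3K4me3 and H3K27ac are highest at P2, H3K4me1 is spread over the introns and is low at P2, and the triangle marks the locus 51.6 kb downstream that passed the test for PR-957.

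Apart from the SUPT3H start, the listed marks of RUNX2 lay at P2 and downstream of it. Its 20 H3K4me1 loci extended from P2 to beyond the last exon. The strongest was centred 168 kb from the P1 start, with an H3K4me1 level of 2.99 and 2.51 CPM per kb in DMSO, and the widest, 14.6 kb, was centred at 114 kb, with 2.49 and 2.35. Here 5 of the 20 H3K4me1 loci overlapped H3K27ac (25.0%), against 41.2% of all H3K4me1 loci. RUNX3 was the compact member, with 4 H3K4me1 loci, all 4 of which overlapped H3K27ac. One of them, 14.1 kb wide, lay between P1 and P2, with an H3K4me1 level of 2.20 and 1.98 at its leading interval. CBFB had 7 H3K4me1 loci at levels of 0.581 to 1.49 CPM per kb (mean of 2 libraries), and the highest of these lies at the start of the neighbouring gene PHAF1.

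**Figure D3:**
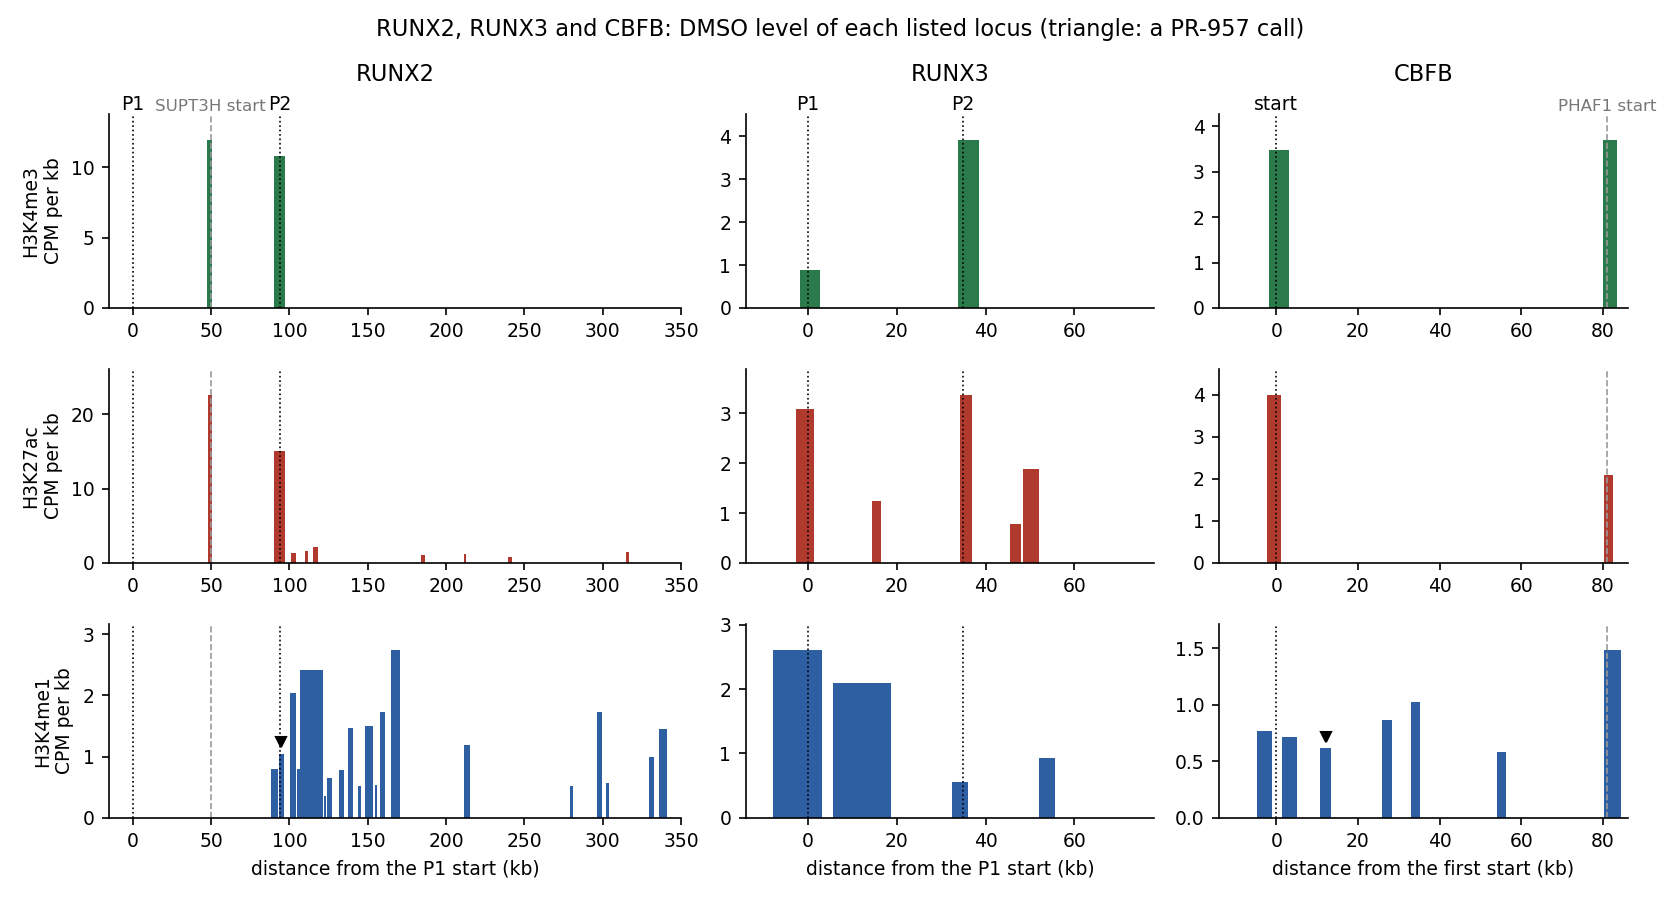
DMSO level (mean of 2 libraries, CPM per kb of the interval, vertical axis, scaled separately in each panel) of each locus of RUNX2, RUNX3 and CBFB against the distance from the first start in kb. In RUNX2 no interval of the 3 marks is listed around P1, the first H3K4me3 peak belongs to the SUPT3H start, and triangles mark the loci of RUNX2 and CBFB that passed the test for PR-957.

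Under PR-957, no H3K4me3 or H3K27ac interval of the family passed the test. In edgeR's quasi-likelihood test with Benjamini-Hochberg adjustment over all intervals of a mark, 0 of 53 H3K4me3 intervals passed a threshold of 0.05, against 0.226% of all intervals tested, and 0 of 77 H3K27ac intervals, against 0.238%. Unadjusted edgeR p was under 0.05 for 0 of either set, against 7.52% of all H3K4me3 intervals and 8.01% of all H3K27ac intervals. DESeq2 called none, against 0.0636% and 0.818% of all intervals to which it gave an adjusted p, but in H3K27ac it gave one to only 12 of the 77 members, and in H3K4me3 to 44 of the 53. With backgrounds this low, a list of this size would seldom hold a call, so the 95% intervals of the differences are given. At RUNX1 P2 the log2 fold change of H3K4me3 was 0.05 (standard error 0.068), with a 95% interval of 0.943 to 1.13 for the ratio of PR-957 to DMSO. At RUNX2 P2 it was -0.06 (standard error 0.069), with a ratio of 0.876 to 1.06. The corresponding H3K27ac log2 fold changes were -0.02 and 0.01, with ratios of 0.911 to 1.06 and 0.923 to 1.09. CBFB had an H3K4me3 log2 fold change of -0.02 (ratio 0.872 to 1.12) and an H3K27ac log2 fold change of 0.12 (ratio 0.869 to 1.36). The intervals at RUNX1 P1 were wider than those at RUNX1 P2 and RUNX2 P2. They gave ratios of 0.882 to 1.09 for H3K4me3 and 0.735 to 1.14 for H3K27ac. At RUNX3 P1 the H3K4me3 interval was wider still, with a ratio of 0.735 to 1.30. At RUNX3 P2 the H3K4me3 ratio was 0.923 to 1.17.

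RUNX3 had the H3K27ac intervals with the smallest p-values, and its promoters leaned in opposite directions. RUNX3 P2 (chr1:24928229-24930858) had an H3K27ac CPM of 8.70 and 9.07 in DMSO and 10.4 and 12.0 in PR-957. RUNX3 P1 (chr1:24963812-24967785) had 9.84 and 14.7 in DMSO and 8.35 and 10.3 in PR-957. The groups did not overlap at P2 and overlapped at P1. In H3K27ac the groups did not overlap in 22 of the 77 members, against 36.9% of all intervals tested. The log2 fold changes were 0.34 (standard error 0.19, adjusted p = 0.688 in edgeR) and -0.37 (standard error 0.19, adjusted p = 0.628), so that neither passed, with 95% intervals of 0.976 to 1.65 and 0.601 to 1.00 for the ratio. When 1 library was left out, the log2 fold change was 0.22 to 0.44 at P2 and -0.64 to -0.07 at P1. The value nearest to 0 at P1 was that without DMSO replicate 2. The difference between the promoters was not tested. An overlapping interval at P2 had the smallest adjusted p of the family in this mark, 0.627. In H3K4me3 the smallest was 0.840, at the SUPT3H start.

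The smallest p in H3K27ac for RUNX1 was at an interval just upstream of P1 (chr21:35050320-35052329), with a CPM of 6.36 and 6.25 in DMSO and 5.84 and 3.80 in PR-957, all PR-957 values being lower. In edgeR this gave a log2 fold change of -0.42 with a standard error of 0.26 and adjusted p = 0.736. For RUNX2 it was an intron interval 117 kb from the P1 start (log2 fold change -0.37, adjusted p = 0.773), and for CBFB the promoter (0.16, adjusted p = 0.886). In H3K4me3 the smallest adjusted p was 0.884 for RUNX1, 0.917 for RUNX3 and 0.927 for CBFB, the last at the start of PHAF1.

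In H3K4me1, 6 of 222 member intervals passed, 5 higher and 1 lower in PR-957, which is 2.70% against 1.94% of all intervals tested (1.24% higher and 0.701% lower). The 6 lie in 3 loci, 1 each in RUNX1, RUNX2 and CBFB. DESeq2 called none of the 220 to which it gave an adjusted p, against 0.0245% of all intervals it tested. In edgeR 40 of the 222 had an unadjusted p under 0.05, against 16.2% of all H3K4me1 intervals.

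The RUNX2 call lies at P2 (chr6:45421493-45424752), across exon sequence and the CG-rich promoter shown above. Its H3K4me1 counts were 108 and 75 in DMSO and 23 and 37 in PR-957, or 3.66, 3.14, 1.48 and 1.61 CPM. Both PR-957 libraries were lower than both DMSO libraries, and H3K4me1 fell by 1.13 on the log2 scale (standard error 0.30, adjusted p = 0.0200 in edgeR), which is 2.19-fold lower. H3K4me3 and H3K27ac over the same promoter did not pass, with the intervals given above. A neighbouring H3K4me1 interval on the upstream side of P2 had a value of -0.65 on that scale (standard error 0.29, adjusted p = 0.220), and a wider one around it -0.07 (adjusted p = 0.911). The drop was therefore not seen with the same size across the whole of P2. In a bulk library, a lower level in every cell and the loss of the mark from some cells cannot be told apart.

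The RUNX1 call lies between P1 and P2, 51.6 kb downstream of the P1 start (chr21:34994347-35001124), in an intron with no listed H3K27ac or H3K4me3. Its H3K4me1 counts were 235 and 242 in DMSO and 209 and 288 in PR-957, or 7.96, 10.1, 13.4 and 12.5 CPM, since the PR-957 libraries were shallower. Both PR-957 libraries lay above both DMSO libraries, and the level rose 1.44-fold (log2 fold change 0.52, standard error 0.14, adjusted p = 0.0205 in edgeR). Of the 6 overlapping intervals at this locus, 3 passed. The 3 that did not had log2 fold changes of 0.38 to 0.51.

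The CBFB call lies in an intron 12.1 kb downstream of the start (chr16:67039785-67042320), again without H3K27ac or H3K4me3. Its H3K4me1 counts were 45 and 38 in DMSO and 50 and 75 in PR-957, or 1.52, 1.59, 3.21 and 3.26 CPM, so that the groups were apart and each group's libraries lay close together. The level rose 2.08-fold (log2 fold change 1.06, standard error 0.31, adjusted p = 0.0421 in edgeR), and both overlapping intervals of the locus passed. The next CBFB locus, 27.1 kb from the start, changed by 0.64 on the log2 scale without passing (standard error 0.28, adjusted p = 0.212). None of the 3 loci passed in every setting tried. DESeq2 gave adjusted p = 0.420 for RUNX2, 0.519 for RUNX1 and 0.483 for CBFB. A fit without 1 library leaves 1 library in that group, which is then assumed to vary like the other group. In edgeR each of the 3 lost its call without DMSO replicate 1 (adjusted p = 0.283, 0.409 and 0.237) and without PR-957 replicate 1 (0.138, 0.167 and 0.180). Without DMSO replicate 2 or PR-957 replicate 2 the RUNX1 call held (0.0267 and 0.0445), and those of RUNX2 (0.0678 and 0.0713) and CBFB (0.138 and 0.157) did not. The log2 fold changes in these fits were -1.24 to -1.01 for RUNX2, 1.03 to 1.08 for CBFB and 0.35 to 0.70 for RUNX1.

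**Figure D4:**
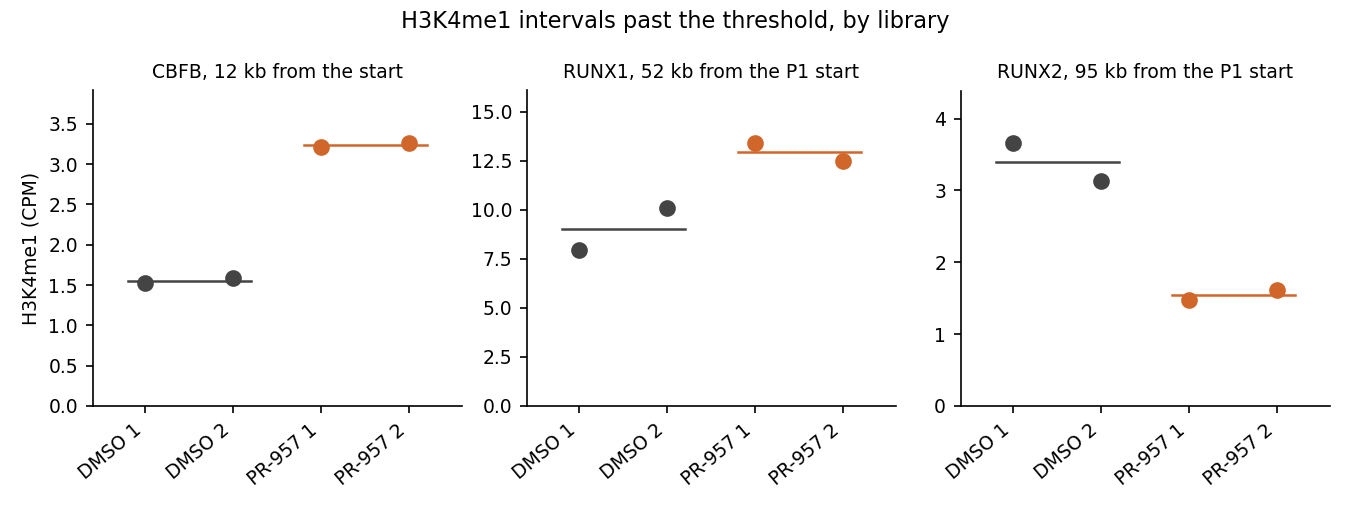
H3K4me1 level in CPM (vertical axis, linear from 0) of the intervals past the threshold in each library, with lines at the group means, for the loci in the introns of CBFB and RUNX1 and at RUNX2 P2. The PR-957 values are above the DMSO values in CBFB and RUNX1 and below them in RUNX2.

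Beyond the calls, the 4 genes differed in their median H3K4me1 log2 fold change. It was 0.29 over 61 RUNX2 intervals and 0.20 over 16 CBFB intervals, -0.01 over 126 RUNX1 intervals and -0.17 over 19 RUNX3 intervals, against -0.00113 over all intervals. In RUNX2, 47 of 61 were above 0, against 49.9% of all intervals, and overlapping intervals at a locus are not independent of each other. The groups did not overlap in 42 of 61 RUNX2 intervals, 11 of 16 in CBFB, 13 of 19 in RUNX3 and 61 of 126 in RUNX1, against 46.7% of all H3K4me1 intervals. GC content moved with these values. Over all H3K4me1 intervals, the median log2 fold change was 0.28 in the decile of lowest GC content and -0.14 in the decile of highest. The median GC content of the members was 41.1% in RUNX2, 43.3% in CBFB, 44% in RUNX1 and 56.7% in RUNX3, and the deciles matched to these intervals had median log2 fold changes of 0.14, 0.06, 0.04 and -0.12. When offsets took out the trend of each library on GC content, which was added after seeing the data, the medians were 0.10 in RUNX2, 0.04 in CBFB, -0.09 in RUNX1 and -0.08 in RUNX3, so that the RUNX1 median moved further from 0 and the others nearer to it. The RUNX1 call passed after this correction (adjusted p = 0.0319 in edgeR), and the RUNX2 and CBFB calls did not (0.0668 and 0.0994), with log2 fold changes of -0.99 and 0.95 in place of -1.13 and 1.06.

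**Figure D5:**
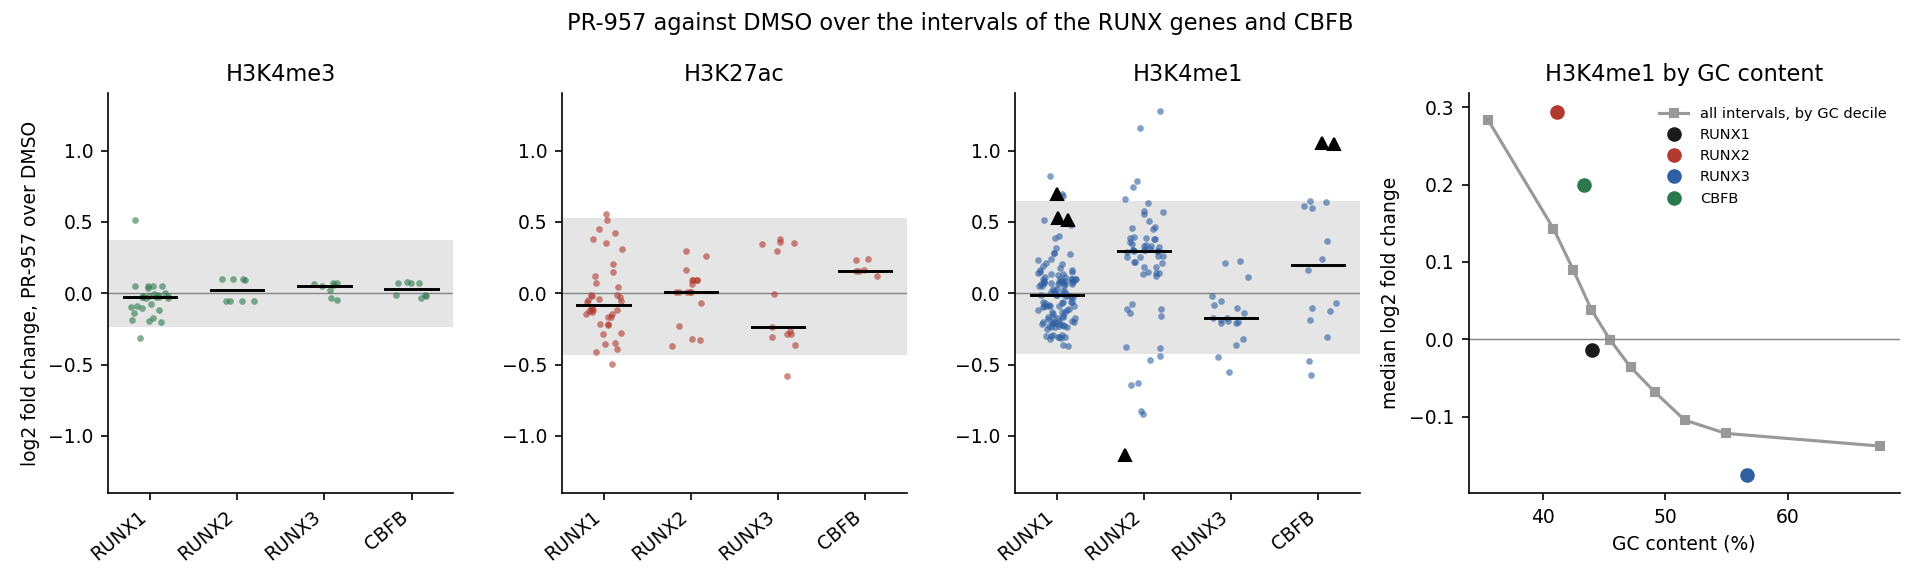
Log2 fold change of PR-957 over DMSO for each member interval (points, spread sideways at random; triangles passed the test; black lines are medians; the grey band spans the 5th to the 95th percentile of all intervals of the mark), and, at the right, the median H3K4me1 log2 fold change in deciles of all intervals by GC content (squares, at the midpoint of each decile) with the members' medians. Most points lie inside the band, and the RUNX2 and CBFB medians lie above the grey line while those of RUNX1 and RUNX3 lie below it.

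The surroundings of the family were described by 40 genes listed for their known roles, each by its strongest interval within 2 kb of a start site. Of the 10 factors that share sites with RUNX1 in blood cells, 10 were listed for H3K4me3, 8 for H3K27ac and 8 for H3K4me1. ERG and TAL1 were missing for H3K27ac and H3K4me1. Their H3K4me3 was low, with 1.88 and 0.793 CPM in DMSO at ERG and 1.92 and 1.08 at TAL1. The lowest of the other factors was FLI1, at 34.9 and 36.9. Of the 12 cofactors, 12, 12 and 10 were listed, and of the 18 known target genes, 14, 13 and 15. None passed in H3K4me3 or H3K27ac by edgeR, and 2 of 36 and 6 of 33 had an unadjusted p under 0.05, against the 7.52% and 8.01% above. DESeq2 called none of the 34 and 18 genes to which it gave an adjusted p, which in H3K27ac leaves out MPO. Median log2 fold changes were 0.02 and -0.06. In H3K4me1, 1 of 33 passed, lower in PR-957, which at this number of genes is near the 1.94% of all intervals (0.701% lower), and the median was -0.11.

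That gene was TLE3, a Groucho-type corepressor recruited by RUNX proteins. Its H3K4me1 CPM was 14.0 and 14.5 in DMSO and 9.50 and 11.3 in PR-957, with both PR-957 libraries lower. H3K4me1 fell by 0.44 on the log2 scale (standard error 0.13, adjusted p = 0.0475 in edgeR), and DESeq2 gave adjusted p = 0.569. The smallest p in H3K27ac was at MPO, the myeloperoxidase gene and a known RUNX1 target, with 24.7 and 25.6 CPM in DMSO and 17.1 and 19.7 in PR-957 (log2 fold change -0.44, adjusted p = 0.163), followed by LYL1, a helix-loop-helix factor (-0.26, adjusted p = 0.350). In H3K4me3 it was at SPI1, which encodes the myeloid factor PU.1, with 68.8 and 67.2 CPM in DMSO and 53.5 and 63.3 in PR-957 (log2 fold change -0.22, adjusted p = 0.210), followed by ERG (-0.89, adjusted p = 0.645). In H3K27me3, 1 of the 9 genes listed passed, against 5.92% of all intervals. This was TAL1, a factor of blood stem and erythroid cells, with 335 and 342 CPM in DMSO and 280 and 275 in PR-957. H3K27me3 there fell by 0.29 on the log2 scale (standard error 0.051, adjusted p = 5.11e-06 in edgeR). The TAL1 call rests on the scaling, which shifted the median H3K27me3 log2 fold change by -0.16 relative to library size alone. With library size alone TAL1 had a log2 fold change of -0.13 (adjusted p = 0.0521 in edgeR), and with cyclic loess offsets of -0.11 (0.0779), so that it passed in neither. ZFPM1, which encodes a cofactor of GATA factors, then passed in its place, at 0.42 (0.000550) and 0.32 (0.0164), against 0.26 (0.0838) in the fit reported here.

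Total counts per library were 9885836 to 14165777 for H3K27ac and 10032503 to 12047958 for H3K27me3. For H3K4me3 they were 44591150 and 42037643 in DMSO and 30070119 and 30454212 in PR-957. For H3K4me1 they were 30584219 and 23874111 in DMSO and 15204186 and 22790073 in PR-957. Depth thus differed by treatment in H3K4me3 and H3K4me1, with PR-957 the shallower. In simulated counts for the libraries of each mark, 200 intervals were changed 2-fold. The test recovered 166 of them for H3K4me3, 121 for H3K27ac, 132 for H3K4me1 and 77 for H3K27me3. An H3K4me3 interval was listed at the promoter of 7 of 8 myeloid marker genes, all but MPO, and an H3K27ac interval at 8 of 8. The DMSO and PR-957 libraries share the list of a mark, so these counts give no level. Of the genes of other lineages reported here, 0 of 3 erythroid genes had an interval of either mark. For T cell genes, 1 of 3 had an H3K4me3 interval (CD8A) and 0 an H3K27ac interval. For epithelial genes, 2 of 3 had an H3K4me3 interval and 1 an H3K27ac interval (KRT8).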

How the data were processed

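MOLM-13 cells were profiled by Cut&Tag for H3K4me3, H3K27ac, H3K4me1 and H3K27me3. The submitters' processing notes name Trimmomatic 0.39, Bowtie2 2.2.5, Picard 2.27.1, SAMtools 1.7, SEACR 1.3 and deepTools 3.5.1 and the build hg38. The values deposited by the authors are raw whole-number counts on 1 list of intervals per mark, without normalization. The counter, the treatment of duplicates and the making of the lists are not given in the sources used here.

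Intervals were annotated with GENCODE release 44 in Python 3.11.15, with coordinates counted from 1. Promoters were start sites of all annotated transcripts of these protein-coding genes, coding or not, joined within 2 kb. P1 and P2 were told apart by the first residues encoded. Counts were kept by filterByExpr of edgeR 4.0.16 (minimum count 10), scaled by TMM and compared within each mark between 2 PR-957 and 2 DMSO libraries by the quasi-likelihood test in R 4.3.3, with Benjamini-Hochberg adjustment over all intervals of the mark at 0.05. All 352 member intervals passed the filter. The test was checked on simulated counts, where 5 to 8 unchanged intervals were called per mark. An exact permutation test of 2 libraries against 2 cannot go below p = 0.333.

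Named were the members, the interval with the highest mean count at each promoter, loci that passed or else the smallest p, and network genes that passed or else the 2 smallest p per mark. The members and lists were chosen with earlier results of these data known. Alternatives were DESeq2 1.42.0, scaling by median-of-ratios factors, by cyclic loess offsets or by library size alone, no filter, a mean count of at least 50, a fold change of at least 1.5, 1 interval per locus, the gene body alone, windows of 1 and 5 kb, the replicate number as a block and leaving out each library. Removing each library's trend on GC content (lowess, span 0.3) was added after seeing the data, as was leaving out the part of RUNX1 upstream of P1. Same-numbered libraries deviated together with correlations of 0.167 for H3K4me3 and -0.00886 to 0.00682 for the other marks, and the labels do not tie the numbers to shared material, so the main comparison has no block. One list of lineage markers is not reported here.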

Additional observations from a re-analysis of the deposited data

How the results depend on the processing

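The count of 0 members called in H3K4me3 and in H3K27ac held under every alternative run. For H3K4me1, 6 member intervals were called, and also with library size only, without a filter, with a mean count of at least 50, over the gene body alone and without the part of RUNX1 upstream of P1. The count was 5 with median-of-ratios factors, and 4 both with a fold change of at least 1.5 and after the GC trend was taken out. It was 3 with cyclic loess offsets, 3 with 1 interval per locus, 3 with the replicate number as a block and 0 with DESeq2, and from 0 to 2 when a library was left out. With 1 interval per locus the 3 calls are 3 of the 67 member loci, since overlapping intervals were no longer counted. Of all H3K4me1 loci, 2.56% were called by edgeR in that setting. With the block both CBFB calls (adjusted p = 0.0539 in edgeR for the leading interval) and 1 of the 3 RUNX1 calls were lost, and the leading intervals of RUNX1 (0.0210) and RUNX2 (0.0293) passed. The 4 calls with the GC trend removed are all in RUNX1, and 2 of them are among the 6. Over all 108158 H3K4me1 intervals tested, 958 were called with the trend removed, against 2099 in the main fit. The cause of the other changes was not tested. Among the 40 network genes, the count in H3K4me1 was 1, and 0 with library size only, cyclic loess offsets, DESeq2, the GC trend removed or a mean count of at least 50 (for these genes added after seeing the data), and 0 to 2 when a library was left out (TLE3 and GFI1 without PR-957 replicate 2). The count in H3K4me3 was 0 to 1 when a library was left out (SPI1 without PR-957 replicate 2, adjusted p = 0.00927 in edgeR), and that for H3K27ac was 0 throughout, with no adjusted p for 15 of 33 genes in DESeq2. The count in H3K27me3 was 2 (TAL1 and ZFPM1) with a mean count of at least 50 and 1 in all other alternatives run, but the gene was ZFPM1 under cyclic loess offsets or scaling to library size alone, and TAL1 otherwise. The block changed no call among the network genes. Over the 18 promoter values, which leave out the called H3K4me1 interval across the RUNX2 P2 starts, 0 of 215 alternative values passed the threshold (4 of them, in DESeq2, have no adjusted p). The lowest adjusted p was 0.160 in edgeR, and 14 values changed sign. No promoter value had passed in the main fit either. The largest shift in log2 fold change was 0.55, for H3K4me1 at RUNX1 P2, from 0.22 to 0.76 without DMSO replicate 1. With 2 libraries per group, an effect of 2-fold or less can pass undetected at this depth. Of 200 simulated 2-fold changes, drawn from all intervals tested, the test recovered 166 for H3K4me3, 121 for H3K27ac, 132 for H3K4me1 and 77 for H3K27me3.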
